A study of Mus musculus with 6 samples.

Results

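*Ncam1*, *Ncam2*, *L1cam*, *Chl1*, *St8sia2* and *St8sia4* are 6 of the 50600 genes in a read count table of cardiac side population (SP) cells, heart cells sorted for their ability to pump out the Hoechst dye. The genes were taken by symbol, and all 6 were found, each on a chromosome of its own. *Ncam1* was chosen on its large difference between the genotypes in these same libraries, and the other 5 as its relatives and modifying enzymes. The genotype difference of *Ncam1* is therefore given as a description with no test. RNA was sequenced in 3 libraries from wt mice (C57BL/6NRj) and 3 from flt3L-/- mice (C57BL/6Flt3Ltml/mx), which lack the ligand of the receptor Flt3 through a germline mutation. The mice were 8 to 12 weeks old, no treatment was given, and each library pooled the SP cells of 4 mice, so that the spread between libraries is one between pools. A wt sort and an flt3L-/- sort were made on each of 3 days, 2 in August 2016 and 1 in August 2017, and these pairs are numbered 1, 2 and 3 by date.

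Levels are CPM, read counts relative to library size, scaled with edgeR's TMM factors, and a count of 3, taken as the floor of detection, is 0.109 to 0.127 CPM. *Flt3l*, the targeted gene, had 8.67 to 12.1 CPM in wt and 12.4 to 14.4 CPM in the other group, whose libraries are for that reason called "labelled flt3L-/-". Which exons the mutation removes is not given in the sources used here. Of the exon bases of *Flt3l*, 22.1% are shared with other genes. These are RNA counts, whereas the paper measured Flt3L protein, in the medium of cultured SP cells of both genotypes. The SP label was checked against its genes. The dye pump gene *Abcg2* and the surface marker genes *Ly6a* (Sca1) and *Cd34* had at least 3774 counts in every library. Endothelial markers summed to 7030 to 9246 CPM, fibroblast markers to 3831 to 18966 CPM and myeloid markers to 247 to 2737 CPM over the 6 libraries, and the sorts therefore held several cell types. In such bulk samples fewer cells of a type and less RNA per cell cannot be told apart.

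Ncam1 is an adhesion molecule of the immunoglobulin superfamily that binds its like on neighbouring cells, and Ncam2 is its closest relative. L1cam and Chl1 belong to the L1 family, which guides growing axons and binds ankyrin under the membrane. St8sia2 and St8sia4 build polysialic acid, a long and strongly charged sugar chain, on Ncam1, which weakens its adhesion. St8sia2 is the main enzyme of the embryo and St8sia4 that of adult tissue. Ncam1 was first known from neurons, and it is also found on developing and injured muscle, on cardiac nerves and, in humans, as CD56 on natural killer cells. Mouse natural killer cells do not carry it.

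*Ncam1* (ENSMUSG00000039542) lies on the minus strand of chromosome 9 of GRCm38 from 49502136 to 49798925. It had 787, 258 and 320 reads in the wt libraries of pairs 1, 2 and 3, which are 30.6, 10.01 and 11.9 CPM. In the libraries labelled flt3L-/- it had 4773, 4371 and 3784 reads, or 174, 185 and 149.8 CPM. Every library labelled flt3L-/- was above every wt library, and the lowest of the first was 4.89 times the highest of the second. The mean of the wt libraries was 17.5 ± 11.4 CPM and that of the libraries labelled flt3L-/- was 169.7 ± 18.2 CPM (SD, n = 3 each), a ratio of 9.69. Within pairs the ratio was 5.68, 18.5 and 12.6. The fitted log2 fold change was 3.45 with a standard error of 0.38. It was 3.93 when pair 1 was left out, 3.05 when pair 2 was and 3.35 when pair 3 was. The wt libraries differed more among themselves, with a coefficient of variation of 65.0%, than the libraries labelled flt3L-/-, with 10.7%. The wt library of pair 1 held the highest wt level of *Ncam1*. It was also the wt library with the highest fibroblast, mural and Schwann cell marker levels. Over all libraries *Ncam1* correlated with these lists at −0.32, −0.23 and 0.091, and their part in its level was not tested.

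**Figure D1:**
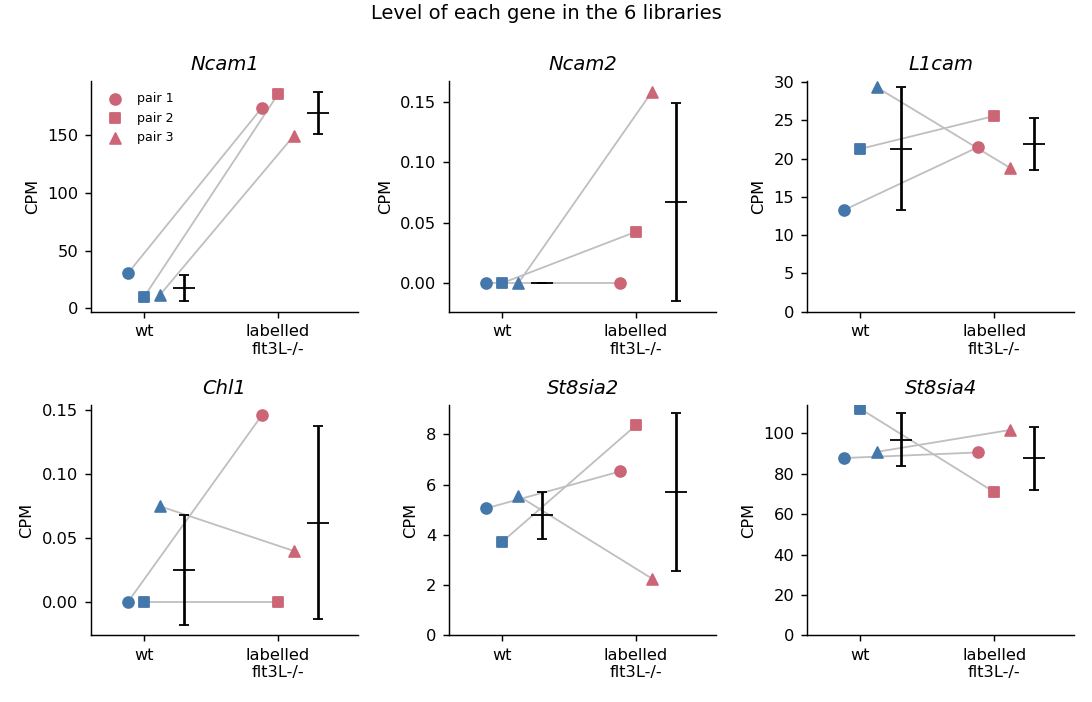
CPM of the 6 genes in each library, on linear axes that differ between panels. Symbols mark the pair, grey lines join the libraries sorted on 1 date, and black bars are the group mean ± SD (n = 3). *Ncam1* goes up in each pair with no overlap of the groups, *L1cam*, *St8sia2* and *St8sia4* overlap, and *Ncam2* and *Chl1* stay near 0.

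Set among the other genes, *Ncam1* had the highest log2 fold change of the 13475 protein-coding genes tested, of which 99% lay between −1.69 and 0.93. Only 2 genes differed by more than 3 log2 units in either direction, *Ncam1* and *Fibcd1*, which had 1.54 CPM in wt and a mean of 0.063 CPM, under the floor, in the other group. The fitted value of −4.34 for *Fibcd1* therefore depends on the prior count. The difference exceeded 2 log2 units the same way in each pair for *Ncam1* and, downwards, for *Tmprss6* (−2.47), and for no other gene. The groups did not overlap, with higher values in the libraries labelled flt3L-/-, for 475 genes or 3.53% of those tested, and *Ncam1* was the only member among them. The groups did not overlap in the other direction for 394 genes (2.92%), with 0 members among them. No gene had an adjusted p under 0.05 in edgeR's quasi-likelihood test (0 of 13475, 0%), while 149 genes (1.11%) that were higher and 335 (2.49%) that were lower had an unadjusted p under 0.05. At the same threshold the paper's own edgeR analysis reported *Serpinh1* as higher and a larger number of genes as lower in flt3L-/-. *Ncam1* was not among the genes it listed. The present fit did not reproduce those calls, and the reason was not tested. DESeq2 called 21 genes (0.156%), of which *Ncam1* was 1. Since *Ncam1* was chosen on this contrast, nothing is read from these counts.

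**Figure D2:**
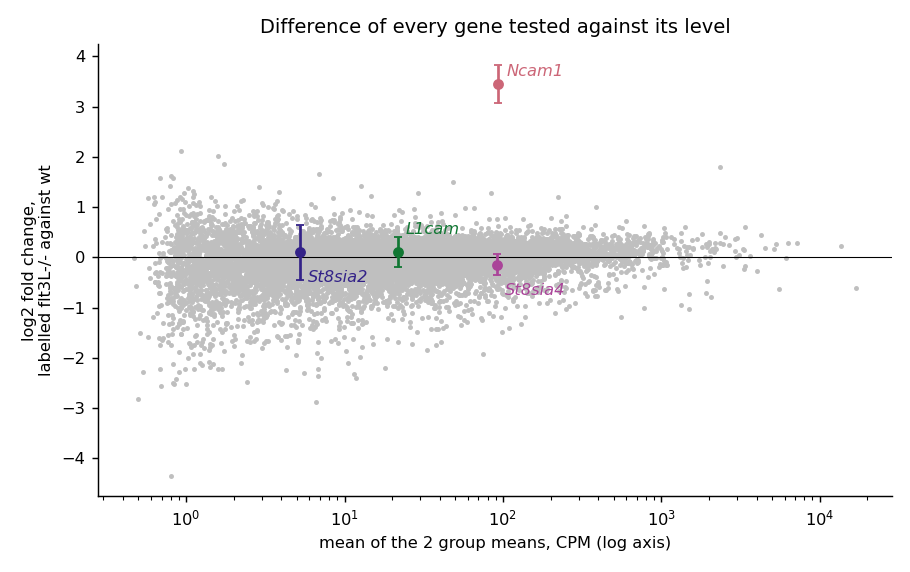
Log2 fold change of every gene tested (labelled flt3L-/- against wt) against its mean level in CPM on a log axis. Grey points are genes, and coloured points with bars are the members with their standard error. *Ncam1* stands alone at 3.45, and *L1cam*, *St8sia2* and *St8sia4* lie within the cloud around 0.

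Reads counted on a second annotated gene moved with those of *Ncam1*. Gm11149 is annotated as antisense to it, on the plus strand from 49518288 to 49572591. The 417 exon bases that belong to both are 4.81% of the exon bases of *Ncam1* and 13.0% of the 3198 of Gm11149. The other exon bases of Gm11149 thus lie outside the exons of *Ncam1*. Gm11149 had 72, 35 and 37 reads in wt and 484, 436 and 495 reads in the libraries labelled flt3L-/-. Its mean went from 1.85 ± 0.83 to 18.6 ± 0.98 CPM (SD, n = 3 each), a ratio of 10.1. The reads counted on Gm11149 were between 9.15% and 13.6% of those on *Ncam1* in all 6 libraries. The libraries were made without strand, so reads of the gene and of its antisense partner cannot be told apart where they overlap. All of Gm11149 lies within the span of *Ncam1*, and a separate antisense transcript cannot be shown from these reads.

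The genes around *Ncam1* were read beside it. None of them could exceed it, since *Ncam1* had the highest log2 fold change of all genes tested. Within 1 Mb of either end lie 29 other protein-coding genes of the table, and 19 of them were tested. Their log2 fold changes ran from −1.32 to 0.48 with a median of −0.10, against a median of 0.00 over all genes, and 0 of 19 had an unadjusted p under 0.05 in edgeR's test. The nearest tested genes were *Ttc12*, with 3.87 ± 2.11 CPM in wt against 4.21 ± 2.23 CPM in the libraries labelled flt3L-/- (SD, n = 3 each), and *Rpl10-ps3*, with 45.5 ± 8.95 and 47.6 ± 7.58 CPM. *Drd2* and *Ankk1*, which lie between *Ttc12* and the genes farther left, had at most 3 and 5 reads in any library.

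**Figure D3:**
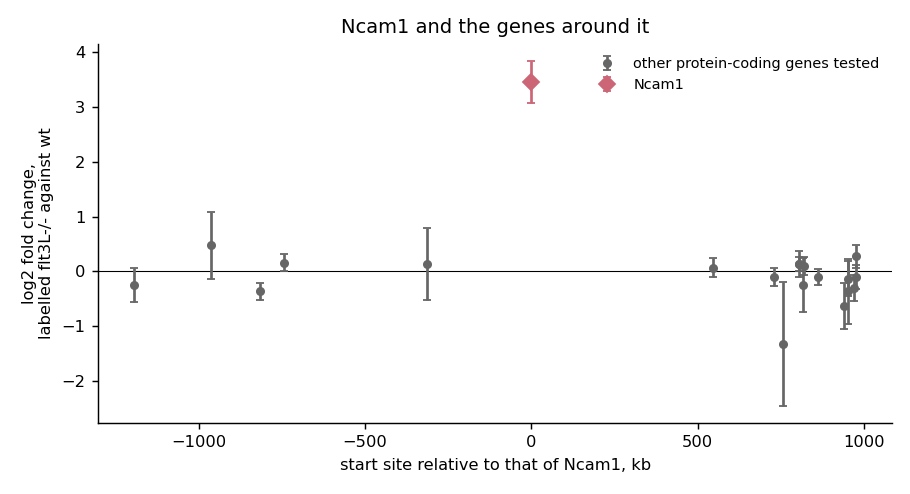
Log2 fold change with its standard error (labelled flt3L-/- against wt) for *Ncam1* and the 19 tested genes within 1 Mb of it, against the distance between start sites in kb. The neighbours lie between −1.32 and 0.48, and *Ncam1* at 3.45.

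By a fixed rule, the 5 genes whose log2 CPM followed *Ncam1* most closely over the 6 libraries were *Fmnl2* (Pearson r = 0.98), *Exd2* (0.98), *Serpinh1* (0.95), *Poc5* (0.95) and *Batf3* (0.95). With the date means removed, r was between 0.95 and 0.99 for these 5 genes. Their log2 fold changes were lower than that of *Ncam1*, as were those of all other tested genes. *Serpinh1*, the collagen chaperone, had a log2 fold change of 1.80, *Fmnl2*, which builds actin filaments, 0.98, *Batf3*, a transcription factor of dendritic cells, 0.53, *Exd2* 0.31 and *Poc5*, a centriole protein, 0.22. The points share their libraries and their split by genotype, and a gene with any steady difference between the groups scores high on this measure. None of the 3 other members that were tested came near, with r of −0.06 for *L1cam*, 0.15 for *St8sia2* and −0.50 for *St8sia4*.

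*L1cam* (ENSMUSG00000031391), the founding member of the L1 family, lies on chromosome X from 73853778 to 73896105. It had 342, 548 and 787 reads in the wt libraries of pairs 1, 2 and 3 (13.3, 21.3 and 29.3 CPM), and 590, 602 and 474 reads in the libraries labelled flt3L-/- (21.5, 25.5 and 18.8 CPM). The wt libraries held both the lowest and the highest value, so the groups overlapped. The means were 21.3 ± 8.01 and 21.9 ± 3.41 CPM (SD, n = 3 each). The log2 fold change was 0.11 with a 95% interval from −0.66 to 0.87 (edgeR's quasi-likelihood test, adjusted p = 0.981), and the pairs differed by 0.69, 0.26 and −0.64. Without pair 1 it was −0.19, and without pair 3 it was 0.48.

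The level of *L1cam* ran with that of the myeloid markers, a list of 12 genes for macrophages, monocytes, dendritic cells and neutrophils. Summed, these markers had 247, 1095 and 2737 CPM in wt against 688, 1492 and 441 CPM where the label was flt3L-/-. Over the 6 libraries the correlation of the log2 values was 0.96 (Spearman 0.94), the highest of 40 computed between 4 members and 10 marker lists, and it was singled out after the values were seen. It was 0.91 without the wt libraries of pairs 1 and 3, which lie farthest from the median of the marker level, and 0.95 with the date means removed. The list's sum rests largely on *Lyz2*, with 1527 of the 2737 CPM in the wt library of pair 3. *L1cam* also correlated at 0.86 with the mesothelial and at 0.69 with the cardiomyocyte markers, so the relation was not particular to the myeloid list. *Arhgap4*, a gene of blood cells that shares 100 exon bases with *L1cam*, had 9.17, 20.95 and 39.7 CPM in wt against 10.4, 22.6 and 10.1 CPM where the label was flt3L-/-. The part of these cells or of *Arhgap4* in the level of *L1cam* was not tested.

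**Figure D4:**
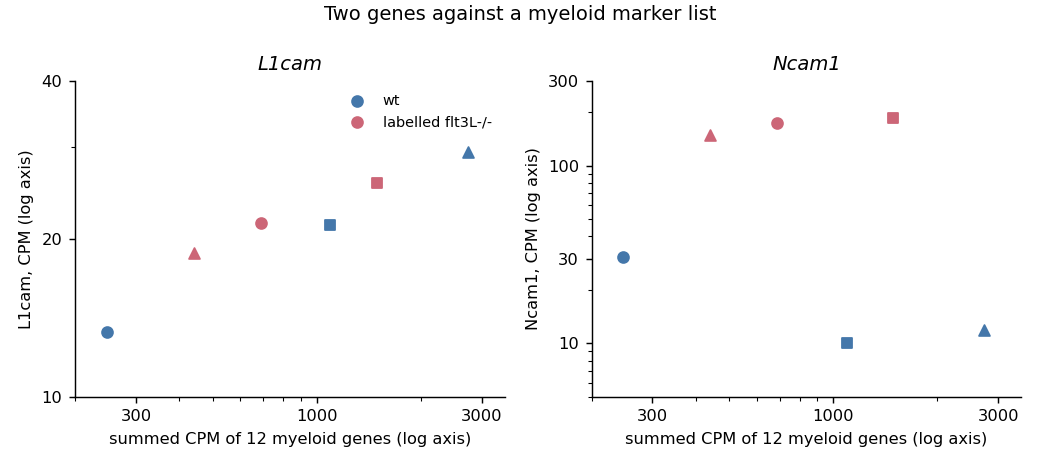
CPM of *L1cam* (left) and *Ncam1* (right) against the summed CPM of 12 myeloid marker genes in the 6 libraries, all axes logarithmic, with symbols for the pairs as circles (1), squares (2) and triangles (3). *L1cam* goes from 13.3 to 29.3 CPM as the markers go from 247 to 2737 CPM, and *Ncam1* separates by genotype at any marker level.

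*Chl1* and *Ncam2* were at the edge of detection. *Chl1* (ENSMUSG00000030077), the close homolog of L1, lies on chromosome 6 from 103510586 to 103750211 and had 0, 0 and 2 reads in wt and 4, 0 and 1 reads in the libraries labelled flt3L-/-. *Ncam2* (ENSMUSG00000022762), on chromosome 16 from 81200697 to 81626828, had 0 reads in all 3 wt libraries and 0, 1 and 4 in the others. Only 1 library for each gene exceeded the floor of 3 reads, and both failed the filter on low counts, so no fold is given. Expression of the paralog *Ncam2* at the scale of *Ncam1* was thus not seen in either group.

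*St8sia4* (ENSMUSG00000040710) lies on chromosome 1 from 95587682 to 95667571 and was the steadiest of the detected members. It had 2259, 2890 and 2439 reads in wt (87.8, 112 and 90.8 CPM), and 2487, 1672 and 2570 reads in the libraries labelled flt3L-/- (90.6, 71.0 and 102 CPM). The groups overlapped, and the highest library was 1.58 times the lowest, against 18.5 times for *Ncam1*. The log2 fold change was −0.15 with a 95% interval from −0.68 to 0.38 (edgeR's quasi-likelihood test, adjusted p = 0.974). It was 0.082 without pair 2, whose library labelled flt3L-/- was the lowest of all. The interval does not reach a doubling or a halving of the enzyme's RNA.

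*St8sia2* (ENSMUSG00000025789) lies on chromosome 7 from 73939119 to 74013690. It had 130, 96 and 149 reads in wt (5.05, 3.72 and 5.55 CPM) and 179, 197 and 57 reads in the libraries labelled flt3L-/- (6.52, 8.36 and 2.26 CPM). The libraries labelled flt3L-/- held the 2 highest levels and the lowest. The log2 fold change of 0.10 had a 95% interval from −1.32 to 1.53 (edgeR's quasi-likelihood test, adjusted p = 0.989), and it was −0.48 without pair 2 and 0.76 without pair 3. A change by less than about that width was not detectable with this spread between pairs.

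Levels of different genes are compared per length, as TPM, read counts divided by gene length and relative to their sum in the library, on the exon bases of each gene. In wt the order was *St8sia4* with 18.2 ± 2.84 TPM, *L1cam* with 10.9 ± 4.07, *Ncam1* with 7.56 ± 4.83 and *St8sia2* with 3.33 ± 0.61 TPM (SD, n = 3 each). *L1cam* and *Ncam1* did not differ beyond their spread, with *L1cam* higher in 2 of 3 libraries, while the other neighbours kept their order in 3 of 3. In the libraries labelled flt3L-/- *Ncam1* came first with 69.5 ± 10.9 TPM, before *St8sia4* with 15.3 ± 2.08, *L1cam* with 10.6 ± 2.14 and *St8sia2* with 3.82 ± 2.21 TPM, each higher than the next in 3 of 3 libraries. *Ncam1* stood above 27.5% of the tested genes in wt and above 81.0% in the libraries labelled flt3L-/-.

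The ratio of *Ncam1* to its main adult polysialyltransferase turned over between the groups. *St8sia4* itself had a log2 fold change of −0.15, so the turn restates the difference on which *Ncam1* was chosen. Whether both RNAs lay in the same cells cannot be told from bulk samples. Per length, *Ncam1* was 0.81, 0.21 and 0.30 times *St8sia4* in the wt libraries, and 4.45, 6.06 and 3.41 times in the libraries labelled flt3L-/-. *St8sia4* exceeded *St8sia2* in every library, by 4.66, 8.07 and 4.39 times in wt and 3.72, 2.27 and 12.1 times in the others. On the longest transcript of each gene these ratios were 9.30, 16.1 and 8.76 in wt and 7.44, 4.54 and 24.1 in the others. Measured on the longest transcript of each gene, *Ncam1* was 0.14 to 0.53 times *St8sia4* in wt and 2.25 to 3.99 times in the libraries labelled flt3L-/-, so the turn did not rest on the long exons of *St8sia4*.

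**Figure D5:**
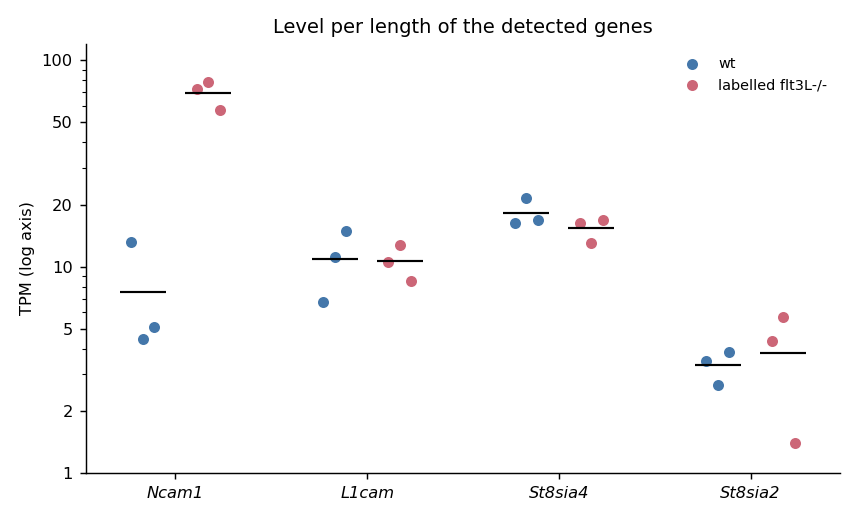
TPM of the 4 detected members in each library on a log axis, with horizontal bars for the group means (n = 3 each). *Ncam1* goes from the third to the first place between wt and the libraries labelled flt3L-/-, and the other 3 overlap between the groups.

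The sorting date was not used in choosing the genes, and its effect was tested in the same fit. Over all genes 0 of 13475 (0%) passed the adjustment for date in edgeR's quasi-likelihood test, and 1116 (8.28%) had an unadjusted p under 0.05, while DESeq2's likelihood ratio test called 403. Of the 4 tested members 0 passed in edgeR, 0 had an unadjusted p under 0.05, and DESeq2 called 0. For *Ncam1* the fit put pairs 2 and 3 at −0.77 and −0.85 log2 units from pair 1 (adjusted p = 0.649 in edgeR's test). It takes the same date shift for both groups. The log2 CPM of *Ncam1* were 4.94, 3.33 and 3.58 in the wt libraries of pairs 1, 2 and 3. In the libraries labelled flt3L-/- they were 7.44, 7.54 and 7.23.

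Other genes of Ncam1 biology were read as lists. *Ncam1* had the highest log2 fold change of all genes tested, so that these lists hold no higher one was fixed by its choice. Among 22 further adhesion molecules of the immunoglobulin superfamily 11 were tested, 0 were called, 0 had an unadjusted p under 0.05, and their median log2 fold change was −0.62 against 0.00 over all genes. Of these 11, 9 had a negative log2 fold change (over all genes 6742 of 13475). In each pair 3 were lower (over all genes 11.5%) and 0 were higher (over all genes 14.2%). *Dscaml1* (−1.06) and *Kirrel* (−0.67), the 2 with the smallest p in edgeR's test, were among those 3. *Cadm1*, an adhesion molecule that can itself carry polysialic acid, had 67.6 ± 46.7 CPM in wt against 37.2 ± 16.0 CPM in the libraries labelled flt3L-/- (SD, n = 3 each), with −1.76, 0.16 and −0.61 in the pairs. *Mcam*, found on endothelial and mural cells, had mean levels of 148 CPM in wt against 182 CPM where the label was flt3L-/-. *Nrcam*, of the L1 family, had 1.98 and 1.38 CPM, and *Nfasc*, *Cntn1* and the other 5 contactins failed the filter. The list's median was −0.91, 0.16 and −0.61 in pairs 1, 2 and 3. That of the fibroblast markers was −1.19, 0.019 and −1.10, and the part of the fibroblast level in the list was not tested.

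No gene on the supply side of polysialic acid was called. Of 13 genes for the synthesis, transfer and removal of sialic acid 8 were tested, 0 were called, 0 had an unadjusted p under 0.05 and the median log2 fold change was 0.12. All 8 had a positive log2 fold change (over all genes 6733 of 13475), and 0 of them was higher in each pair (over all genes 14.2%). *Cmas*, which activates sialic acid for every sialyltransferase, differed by 0.15 log2 units (standard error 0.15), and *Gne*, the first enzyme of its synthesis, 0.0039 (standard error 0.15). *St8sia6*, a relative of the polysialyltransferases that adds only short chains, was the most abundant gene of this list with means of 125 CPM in wt against 155 CPM where the label was flt3L-/-, with 0.80, −0.47 and 0.37 in the pairs. *B3gat2* and *Chst10*, enzymes of the HNK-1 sugar that Ncam1 and L1cam can also carry, had log2 fold changes of −0.32 and −0.39, and 0 of these 2 tested genes had an unadjusted p under 0.05. The 4 other proteins listed as carriers of polysialic acid were all tested, 0 were called, 0 had an unadjusted p under 0.05, and their median was −0.41. *Nrp2*, a semaphorin receptor, was the most abundant of them, with a log2 fold change of 0.17 (standard error 0.28).

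Of 19 partners of Ncam1 and the L1 family at the membrane 16 were tested, 0 were called, 0 had an unadjusted p under 0.05, 2 were lower in each pair (over all genes 11.5%) and 0 higher (over all genes 14.2%). Their median was −0.15, and −0.054 without pair 3. *Fyn*, the kinase on which Ncam1 signals, differed by 0.24 log2 units (standard error 0.33), and *Fgfr1*, a receptor that Ncam1 engages, one of −0.29 (standard error 0.22). *Gfra1*, with which Ncam1 forms a receptor for GDNF, had −0.51 (standard error 0.32), and *Ank2*, an ankyrin, had −0.89 (standard error 0.38). Of the 4 proteases that cut Ncam1 or the L1 family 0 were called. *Bace1*, which cleaves Chl1, was lower in each pair and had an unadjusted p of 0.0308 in edgeR's test (adjusted p = 0.973, log2 fold change −0.41, with 32.5% of its exon bases shared with other genes). *Adam10* and *Adam17* had log2 fold changes of 0.0082 and 0.16.

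Markers of cells that can carry Ncam1 were read beside it. The 14 genes of Schwann cells summed to 35.5 to 61.8 CPM in wt against 28.9 to 52.4 CPM in the libraries labelled flt3L-/-, with *Sox10* and *Foxd3* at or under 3 reads in every library. The 14 neuronal genes summed to 87.4 to 125 CPM in wt against 113 to 168 CPM in the libraries labelled flt3L-/-, mostly from *Stmn2*, and *Chat*, *Th*, *Dbh* and *Snap25* were at or under 3 reads in every library. The neuronal sum was 1.29, 1.178 and 1.35 times the wt level in pairs 1, 2 and 3. Of the 4 tested genes of the neuronal list 2 had a positive and 2 a negative log2 fold change. The 2 positive ones, *Stmn2* and *Uchl1*, were higher in each pair (over all genes 14.2%). Lower in each pair were 0 (over all genes 11.5%). *Uchl1* differed by 0.82, 0.12 and 0.04 log2 units in the pairs. The median of the 4 tested genes was 0.40, 0.48 and −0.21 in the pairs. *Stmn2*, which binds tubulin, differed by 0.41, 0.22 and 0.48 log2 units in the pairs and had an unadjusted p of 0.0361 (adjusted p = 0.973 in edgeR's quasi-likelihood test). The summed level of 12 genes of lymphocytes and natural killer cells was lower in each pair, with 105 to 465 CPM in wt against 56.8 to 176 CPM in the libraries labelled flt3L-/-. Of its 9 tested genes 6 were lower in each pair (over all genes 11.5%). The others, *Cd3e*, *Cd3d* and *Il7r*, were higher in pairs 1 and 2 and lower in pair 3.

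Cardiomyocyte markers had the highest correlation with *Ncam1* of the 10 marker lists (r = 0.47 over the 6 libraries), and were singled out by this value. This was so although the cell suspension had been depleted of cardiomyocytes. The neuronal list came close with 0.43, and the lymphocyte list had the lowest (−0.72). Of the 10 cardiomyocyte genes 9 were tested, and all 9 had a positive log2 fold change (over all genes 6733 of 13475). Of them 5 were higher in each pair (over all genes 14.2%). In edgeR's test 1 was higher with an unadjusted p under 0.05 (over all genes 1.11%) and 0 were called. Their summed level was 164 to 251 CPM in wt against 250.2 to 292 CPM in the libraries labelled flt3L-/-, so the groups just overlapped. It was 1.66, 1.16 and 1.10 times the wt level in pairs 1, 2 and 3, where *Ncam1* was 5.68, 18.5 and 12.6 times, and the pair with the largest ratio of the markers had the smallest of *Ncam1*. Mesothelial markers summed to 22.1 to 69.1 CPM in wt against 38.5 to 59.5 CPM in the libraries labelled flt3L-/-. The part of these cells in the level of *Ncam1* was not tested.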

How the data were processed

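Per the paper's methods, the authors made unstranded SMART-Seq v4 libraries, mapped the reads to mm10 with STAR 2.5.2a, allowed up to 10 hits, placed a read with tied hits at random, and counted reads that started in an exon of a gene (QuasR, Ensembl annotation). The deposited values are these raw counts, with 24370913 to 31145519 per library, and their low counts carry counting error. Positions, biotypes and exon lengths came from GENCODE M21 (GRCm38), which held 50376 of the 50600 genes.

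As in the paper's methods, protein-coding genes that exceeded 1 CPM in 2 or more of the libraries entered a test with edgeR 4.0.16 on R 4.3.3 (TMM, glmQLFit and glmQLFTest with legacy = TRUE, sorting date as covariate, Benjamini-Hochberg adjustment, threshold 0.05). The fit had 2 residual and 2.79 prior degrees of freedom. Intervals are the log2 fold change and its standard error from this fit with the summed degrees of freedom. Log2 values within pairs and for correlations used a prior count of 2. TPM were scaled over protein-coding genes. The fit was tested on simulated data.

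The pairing rests on the sorting dates in the labels. After removal of group means, libraries of the same date correlated at 0.18, 0.10 and 0.12, and libraries of different dates at −0.35 to 0.25, so the correlations alone do not single out the pairs. No library was a copy of another (chi-square per degree of freedom at least 54.6).

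The members, lists and rules were chosen with earlier results of these data known. Named genes are the members, the 2 most abundant and the 2 with the smallest p of each list, the 5 most like *Ncam1* and genes within 1 Mb of it, of which the text gives those that bear on its sentences. *Fibcd1*, *Tmprss6*, Gm11149, *Arhgap4* and the other list genes named were added after their values were seen. Alternatives were other normalizations, filters, biotypes and tools (DESeq2 1.42.0), thinned libraries, no date term and each pair left out.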

Additional observations from a re-analysis of the deposited data

How the results depend on the processing

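DESeq2 in place of edgeR moved both counts of genes called from 0, to 21 for genotype (6 higher and 15 lower, *Ncam1* among them) and to 403 for sorting date. No other alternative called any gene, and leaving out a pair gave counts from 0 to 0. With all libraries kept, 9 alternatives gave *Ncam1* a log2 fold change of 3.28 (no replicate block) to 3.46, and leaving out 1 pair gave 3.05 to 3.93. Without the date as a block 0 genes were called for genotype and 262 had an unadjusted p under 0.05, against 484 with the pairing. The other tested members moved by less than the spread between pairs under the 9 alternatives that left out no pair. *L1cam* lay between −0.19 and 0.48, *St8sia2* between −0.48 and 0.76 and *St8sia4* between −0.31 and 0.082 with 1 pair left out, so none of these 3 has a settled direction. Of 16 alternative levels per length 8 moved by more than the spread between libraries, among them *St8sia4* in wt from 18.2 to 28.3 TPM on its longest transcript. The design has 3 pairs and 2 residual degrees of freedom. Depth limits *Ncam2* and *Chl1*, while thinning the libraries to the smallest total left *St8sia2* at 0.11. No group had enough libraries for a test of outlying samples.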
